A study of Mus musculus with 6 samples.

Results

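Ribosomal protein genes were followed in the liver of GHRH-KO mice and control littermates, those of the cytosolic ribosome and those of the mitochondrial ribosome apart. Members were taken by gene symbol: Rpl or Rps followed by a digit or the letter a, with the Rps6k kinase genes left out, for the cytosolic ribosome, and Mrpl or Mrps followed by a digit for the mitochondrial ribosome. This gave 125 of the 18193 genes with a probe set of their own, 49 cytosolic and 76 mitochondrial. Each gene is represented by its probe set with the highest mean over the 6 arrays, out of 105 probe sets for the cytosolic and 156 for the mitochondrial genes. The symbol rule takes in a few genes that are not ribosome subunits, such as Rps19bp1, which encodes a binding partner of the RPS19 protein, and leaves out the stalk proteins of the large subunit, of which Rplp0 and Rplp2 are described with the other genes of translation.

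The livers were those of 3 GHRH-KO males and 3 control littermates, also male, all of a mixed C57BL6 and 129SV background, fasted for 6 to 8 h and, by the methods, 10 months old. The GHRH-KO mice lack growth hormone releasing hormone, the hypothalamic peptide that drives growth hormone secretion, in the whole body. Each array measured 1 animal by hybridization of labelled RNA to sets of short probes, and a probe set's value is its RMA (robust multichip average) value on the log2 scale. Since RNA from whole liver was used, fewer cells of a type and less RNA per cell cannot be told apart. Array medians lay between 4.95 and 4.99, and all 7 hepatocyte markers were tested without a call, with a median log2 fold change of 0.00. Ghrh itself read 4.41 to 4.75 in controls and 4.40 to 4.57 in GHRH-KO mice, close to the lowest mean tested (4.64), so it does not check the genotype in this tissue. GHRH-KO replicate 5 stood apart in RNA quality: the Gapdh control probe set at the 3′ end exceeded the one at the 5′ end by 5.27, against 0.15 to 0.67 on the other 5 arrays, and for Actb the difference was 2.51 against 0.88 to 1.31.

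The cytosolic ribosome translates the messages of nuclear genes and is built in the nucleolus from ribosomal RNA and many proteins, each made from its own gene and needed in matched amounts. In mammals the output of these genes is set largely at translation, through the TOR pathway, while their mRNAs are abundant and stable. The mitochondrial ribosome, whose proteins are encoded in the nucleus and imported, translates only the few membrane proteins of the respiratory chain and ATP synthase that mitochondrial DNA encodes.

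Promoters of the members were searched for short motifs, because a shared core element is the sequence feature the symbol rule did not use. RefSeq promoters (GRCm38.p6) reaching from 250 bases before to 50 bases after the start were at hand for 42 cytosolic and 67 mitochondrial genes. CCGGAA, the core bound by ETS family factors, was found on either strand in 25 of the 42 cytosolic promoters (59.5%) and in 37 of the 67 mitochondrial ones (55.2%), against 15.2% of all 27025 genes and 26.9% of the 10015 tested genes with a promoter. AAGATGG, a core bound by YY1, was found on either strand in 7 cytosolic (16.7%) and 13 mitochondrial promoters (19.4%), against 7.3% of the tested genes. CTTTC or CTTCC on the sense strand within 10 bases of the start, letters of the kind found in the pyrimidine tract that places ribosomal protein mRNAs under TOR control, was found in 9 cytosolic (21.4%) and 6 mitochondrial promoters (8.96%), against 7.84% of the tested genes. The annotated start can lie some bases from the one used in liver, so this count depends on the annotation. Any 2 of these motifs can share letters, as CTTCC followed by GG does with CCGGAA on the other strand, or CCGGAA with an AAGATGG that starts on its last letters.

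The following windows, from 50 bases before to 10 bases after the start, show the element in 2 genes of each ribosome and its absence in 1 gene of each. They are written 5′ to 3′ on the gene's own strand, with CCGGAA or its complement TTCCGG in capitals. Rps27 (chr3:90213639-90213698, minus strand), Rpl37 (chr15:5116563-5116622, plus strand), Mrpl33 (chr5:31613901-31613960, plus strand) and Mrps12 (chr7:28741812-28741871, minus strand) hold it, and Mrpl33 holds it at 2 places. Rps4x (chrX:102189382-102189441, minus strand) and Mrps25 (chr6:92184014-92184073, minus strand) hold it nowhere in their whole promoters. Mrpl33 and Mrps12 lay at opposite ends of the fold changes given later, with Mrps25 beside Mrpl33.
Rps27: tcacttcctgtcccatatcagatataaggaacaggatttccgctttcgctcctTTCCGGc
Rpl37: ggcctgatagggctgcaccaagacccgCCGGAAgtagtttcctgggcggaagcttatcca
Rps4x: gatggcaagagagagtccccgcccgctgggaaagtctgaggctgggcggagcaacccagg
Mrpl33: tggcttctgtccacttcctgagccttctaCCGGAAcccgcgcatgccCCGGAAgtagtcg
Mrps12: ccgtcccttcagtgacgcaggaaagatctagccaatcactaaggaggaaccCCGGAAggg
Mrps25: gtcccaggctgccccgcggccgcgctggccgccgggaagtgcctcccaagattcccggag

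Of the 49 cytosolic genes 45 passed the filter on dim probe sets. By symbol 22 were of the large and 23 of the small subunit, Rps19bp1 among the latter. The other 4 (Rpl39l, Rpl3l, Rps15a-ps6 and Rps16) read 2.96 to 3.89 on every array and were not tested. How well their probe sets report the mRNA of these genes was not tested either. A gene was called at FDR < 0.05 (limma, Benjamini-Hochberg over all probe sets tested) with a fold change above 1.5 or below 0.67. No cytosolic gene was called raised and 1, Rps4l, was called lowered, where 0.786% of the 12469 genes tested were called raised and 0.97% lowered. The log2 fold change, GHRH-KO minus control, was below 0 for 30 genes and above 0 for 15. Its median was -0.10, with the middle 50% of genes between -0.21 and 0.02, against a median of 0.00 for all genes tested. The cytosolic median was -0.29 over the 21 genes left without probe sets that may hybridize to several transcripts. That setting drops bright probe sets, such as those of Rps29 (mean 13.62) and Rps2 (13.27), and leaves mostly dimmer ones. In the main setting the genes with a mean under 11 also had a median of -0.29. With the arrays centred on their medians the cytosolic median was -0.05, where that of all genes was 0.05. The change was under 0.2 in size for 31 of the 45 genes.

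Where the groups of a cytosolic gene did not overlap on its brightest probe set, the GHRH-KO arrays were the lower ones. In 17 of the 45 (37.8%) all GHRH-KO arrays lay under all control arrays, against 15.7% of all genes tested, and in 0 they lay above, against 12.7%. Many of these groups nearly touched, with gaps of 0.015 for Rpl7l1, 0.02 for Rpl7 and 0.03 for Rps10. The gaps of Rps4l and Rpsa were 0.92 and 0.31. By symbol the 17 genes were 8 of the large and 9 of the small subunit, and the medians were -0.09 and -0.11. The 9 take in Rps19bp1, which is not a subunit of the ribosome (unadjusted p = 0.0335 from limma). Unadjusted p was under 0.05 for 8 genes with the GHRH-KO mean lower and 0 with it higher, where the shares over all genes tested were 10.1% and 9.15%. Without GHRH-KO replicate 5 the counts were 27 lower and 0 higher, beside 21.3% and 15.7% of all genes. Without control replicate 2 as well, they were 28 and 1, beside 29.4% and 20.7%. Probe sets assigned to several genes, at least 1 of them a cytosolic ribosomal protein gene, are outside the rule; of 101 tested, 0 were called, 25 (24.8%) lay apart lower against 14.7% of all probe sets, and their median was -0.07.

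**Figure D1:**
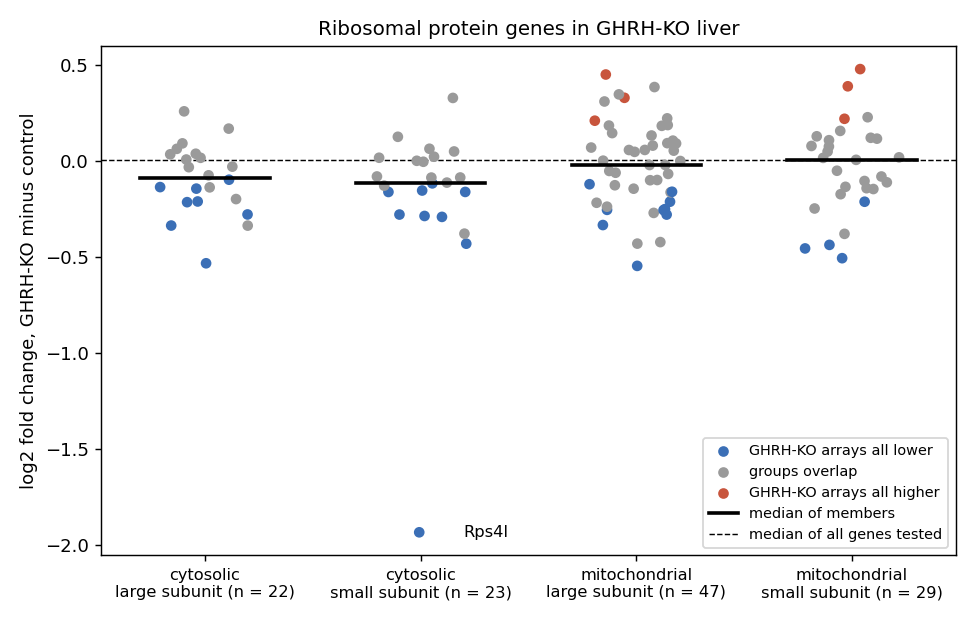
Each point is the log2 fold change (vertical axis, GHRH-KO minus control) of 1 member gene, by ribosome and by the subunit of its symbol. Colour shows whether the 3 GHRH-KO arrays lay all below, all above or among the 3 control arrays. The cytosolic medians sit at -0.09 and -0.11 and no cytosolic point has its arrays all above, while the mitochondrial points spread on both sides of 0 and Rps4l lies alone at -1.93.

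Rps4l, a paralog of the gene for small subunit protein S4, was the member with the lowest fold change. Control replicates 1, 2 and 3 had values of 8.99, 8.48 and 8.96 for it, and GHRH-KO replicates 4, 5 and 6 had 6.52, 6.55 and 7.55. All GHRH-KO values lay below all control values, by at least 0.92, and replicate 6 was the nearest to the controls. The gene fell by 1.93 on the log2 scale (SE 0.30, 95% interval -2.63 to -1.23, adjusted p = 0.0305 from limma), or 3.81-fold. It has 1 probe set, so no second one bears on the value. The call was lost without control replicate 1, 2 or 3 (adjusted p = 0.0923, 0.0832 and 0.107) and without GHRH-KO replicate 4 or 5 (0.08 and 0.0681), each time with the log2 fold change between -2.10 and -1.76, and it was kept without GHRH-KO replicate 6 (0.0115).

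Rps4x, which encodes the S4 protein itself from the X chromosome, read 12.75, 12.73 and 12.79 in controls and 12.81, 12.79 and 12.74 in GHRH-KO mice. The groups overlapped, and the log2 fold change of 0.02 had a 95% interval of -0.22 to 0.26. Its promoter window is printed above, without CCGGAA.

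Among the other cytosolic genes, Rpsa had the change that stood farthest from its error. It encodes the small subunit protein SA, which also serves as a laminin receptor. Its values were 12.32, 12.53 and 12.29 in controls and 11.98, 11.89 and 11.98 in GHRH-KO mice. The groups did not overlap, and the log2 fold change was -0.43 (SE 0.12, adjusted p = 0.13), which did not pass the threshold. Rpl12, a protein at the base of the ribosomal stalk, read 6.00, 6.20 and 6.21 in controls and 5.30, 5.85 and 5.66 in GHRH-KO mice, also without overlap (log2 fold change -0.53, adjusted p = 0.165). Rps25, of the small subunit head, had overlapping groups and a log2 fold change of -0.38 (adjusted p = 0.269). The probe sets of Rpl12 and Rps25 were dim, with means of 5.87 and 6.48, where 33 of the 45 cytosolic genes had a mean over 11. How well such dim probe sets report the mRNA of these genes was not tested.

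Rps6, whose protein is the substrate of the S6 kinases downstream of TOR, read 7.92, 7.83 and 7.68 in controls and 7.48, 7.64 and 7.45 in GHRH-KO mice. The groups lay apart by 0.04 only, and the log2 fold change was -0.29 (SE 0.12, adjusted p = 0.272). These values are of its mRNA and not of its phosphorylation, and its probe set was dim beside those of most members, with a mean of 7.66. Rpl7l1, a paralog of the large subunit gene Rpl7, had a log2 fold change of -0.34 with the groups apart, and Rpl7 one of -0.10, also with the groups apart. Rpl27a had one of -0.34 that rested on GHRH-KO replicate 5, which read 5.99 while the other 5 arrays read 6.84 to 7.11. Without that array its log2 fold change was -0.0045.

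At the high end no gene lay apart on its brightest probe set. Rps27l, a paralog of Rps27 that p53 is known to induce, read 12.40, 12.26 and 12.58 in controls and 12.46, 13.09 and 12.67 in GHRH-KO mice, with a log2 fold change of 0.33 (adjusted p = 0.39). Its highest value was on replicate 5, as were those of Rpl39 (log2 fold change 0.26), Rpl22l1 (0.17), Rps24 (0.13) and Rpl37 (0.09). The part of RNA quality in these values was not tested. Rps27 had a log2 fold change of 0.00, and Rpl22, the paralog of Rpl22l1, one of -0.08. The 3 genes with the highest signal, Rps29, Rps2 and Rpl37a, had log2 fold changes of -0.08, 0.05 and -0.21, and of these only Rpl37a had its groups apart.

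**Figure D2:**
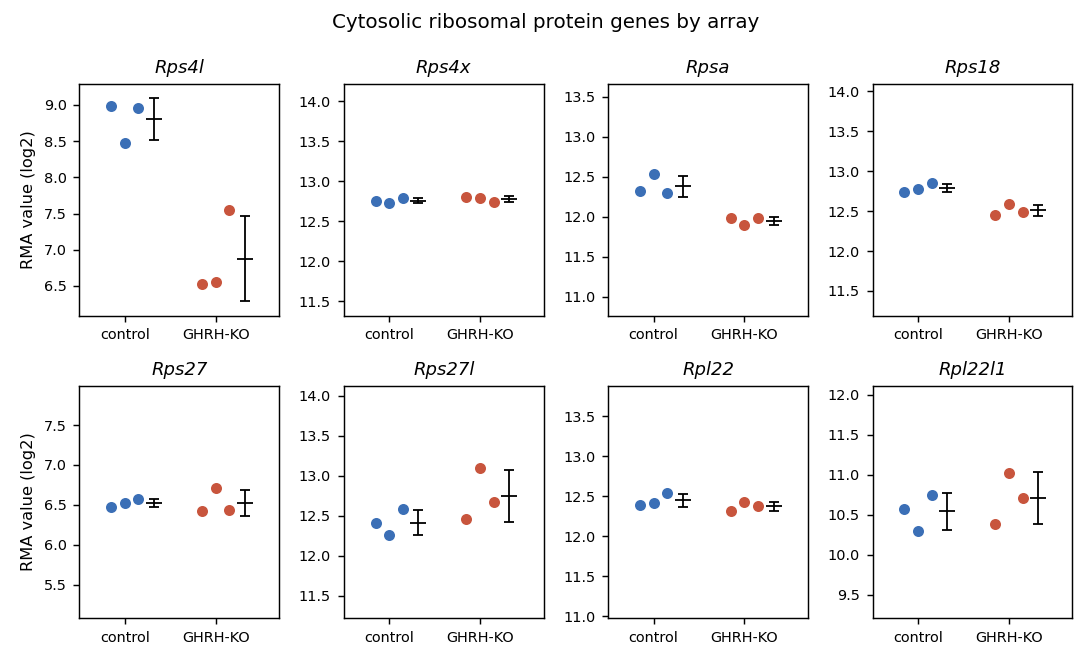
RMA values (log2, vertical axes of each panel over its own range) of 8 cytosolic genes on the 3 control and 3 GHRH-KO arrays, with mean ± SD beside the points. Rps4l, Rpsa and Rps18 have GHRH-KO arrays below all controls, whereas the paralog pairs Rps27 and Rps27l, and Rpl22 and Rpl22l1, overlap.

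The probe sets of 1 gene did not always read alike. Of 21 cytosolic genes with more than 1 tested probe set, 5 had probe sets whose log2 fold changes spanned more than 0.5, and in 8 they differed in sign. Rps9, a small subunit protein gene, had 0.06 on its brightest probe set and -0.50 and -1.13 on the others. The -1.13 rested on GHRH-KO replicate 6, which read 7.20 while the other arrays read 10.19 to 11.27. Rps18 had -0.28 on its brightest probe set, while the others tested ranged from -0.59 to 0.06. The probe set with -0.59 read 11.64 on GHRH-KO replicate 5 and 12.46 to 12.87 on the other arrays. Rpl35 had 0.06 on its brightest probe set, while the others tested ranged from 0.04 to 0.65. The probe set with 0.65 lay apart higher, at 10.88 to 11.46 in controls and 11.59 to 11.99 in GHRH-KO mice (adjusted p = 0.145 from limma). No probe set of any of these genes other than that of Rps4l was called, and 36 of the 45 genes had a 95% interval that lay between the fold limits of 0.67 and 1.5. Genes with a mean over 11, 33 in all, had a median of -0.09 and 12 lay apart lower. The 12 genes with a mean under 11 had a median of -0.29 and 5 lay apart lower.

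All 76 mitochondrial genes were tested, 47 of the large and 29 of the small subunit. None was called raised or lowered by limma, beside 0.786% and 0.97% of all genes tested. At an unadjusted p under 0.05 there were 4 with the GHRH-KO mean higher and 4 with it lower. The shares over all genes tested were 9.15% and 10.1%. On the probe set taken for each gene, the log2 fold change was above 0 for 37 genes and below 0 for 39. Its median was -0.01 and its range -0.55 to 0.48. In 6 genes all GHRH-KO arrays lay above the controls, beside 12.7% of all genes tested, and in 13 (17.1%) they lay below, beside 15.7%. Without GHRH-KO replicate 5 these counts were 6 and 15, beside 15.7% and 21.3% of all genes. Without control replicate 2 as well they were 7 and 27, beside 20.7% and 29.4% of all genes. The 95% interval lay between the fold limits for 54 of the 76.

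The mitochondrial genes at the high end were proteins of both subunits. Mrps25, of the small subunit, read 8.10, 8.21 and 8.19 in controls and 8.61, 8.53 and 8.53 in GHRH-KO mice. The groups lay apart by more than the spread within either, with a log2 fold change of 0.39 (SE 0.10, adjusted p = 0.13), and its second tested probe set gave 0.59. Mrps9, also of the small subunit, read 8.07, 8.06 and 8.43 in controls and 8.63, 8.75 and 8.62 in GHRH-KO mice, apart, with a log2 fold change of 0.48 (adjusted p = 0.149), while its other 3 probe sets gave -0.13 to 0.18. Mrpl9, of the large subunit, had 0.45 (adjusted p = 0.273) with the groups apart, but -0.54 and 0.11 on its other probe sets. Mrpl42 (0.33) also lay apart, and Mrpl1 (0.38) and Mrpl33 (0.35), both of the large subunit, overlapped.

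At the low end several values rested on 1 array. Mrps18b, of the small subunit, read 9.80, 10 and 9.85 in controls and 9.53, 9.33 and 9.48 in GHRH-KO mice, apart, with a log2 fold change of -0.44 (adjusted p = 0.132). Mrps12, a small subunit protein of the decoding centre, read 10.08, 10.15 and 10.11 in controls and 9.83, 9.39 and 9.76 in GHRH-KO mice, apart, with -0.46 (adjusted p = 0.172). Mrps7 had -0.51 and Mrpl4 -0.55, both apart and both lowest on GHRH-KO replicate 5 (9.36 and 8.38). Without that array they were -0.29 and -0.14. Mrpl10 read 9.20, 9.18 and 9.21 in controls and 9.18, 7.84 and 9.28 in GHRH-KO mice: its log2 fold change of -0.43 was 0.03 without replicate 5. Mrpl19 (-0.42) had the same array lowest, at 7.39, and was -0.16 without it.

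**Figure D3:**
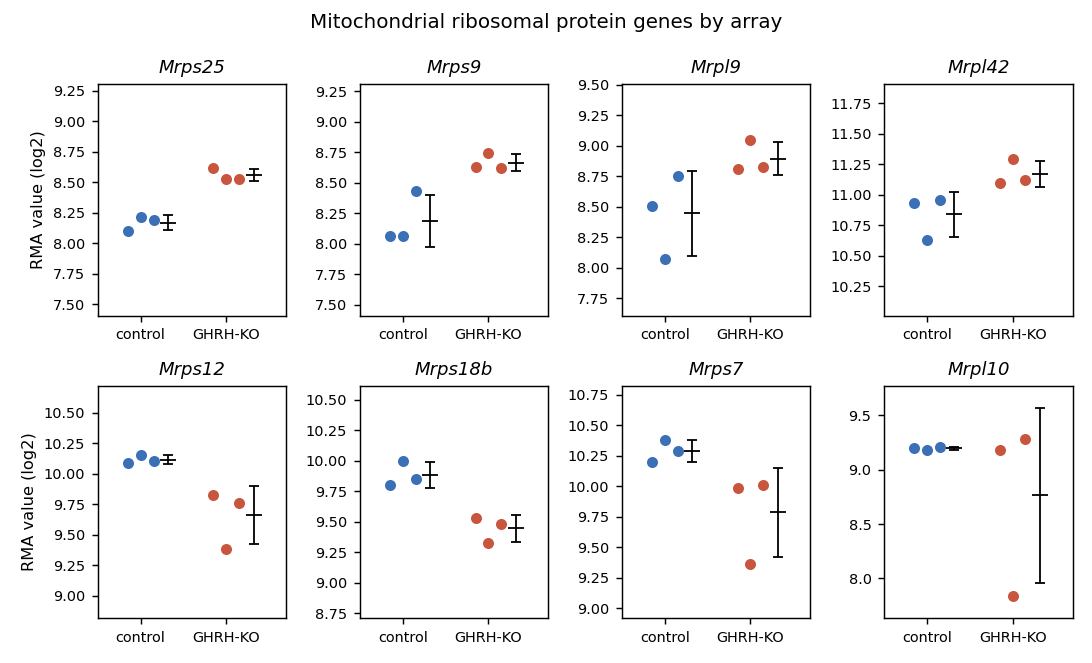
RMA values (log2, vertical axes of each panel over its own range) of 8 mitochondrial ribosomal protein genes on the 3 control and 3 GHRH-KO arrays, with mean ± SD beside the points. In the upper row the GHRH-KO arrays lie above the controls and in the lower row below, except for Mrpl10, where GHRH-KO replicate 5 alone, at 7.84, is low.

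The spread of mitochondrial genes was widest on the array with the low 5′ signal. Measured from each gene's own median, the interquartile range of deviations was 0.31 on GHRH-KO replicate 5 and 0.24 on control replicate 2, against 0.11 to 0.16 on the other arrays. Of the 76 genes, 8 lay more than 0.5 below their median on replicate 5, 3 on control replicate 2 and 1 on control replicate 1. Among cytosolic genes, control replicate 3 was the highest array for 22 of 45 and the lowest for 0, and GHRH-KO replicate 6 the highest for 0. The brightest mitochondrial genes, Mrpl39, Mrpl27 and Mrpl51, had log2 fold changes of -0.02, 0.13 and 0.21. Of 36 mitochondrial genes with more than 1 tested probe set, 6 spanned more than 0.5 and 13 differed in sign. Mrpl49 did both. Its brightest probe set (mean 8.48) gave -0.16 and was lowest on GHRH-KO replicate 5, at 8.06. The other (mean 8.42) gave 0.71 and lay apart higher (adjusted p = 0.0583 from limma).

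**Figure D4:**
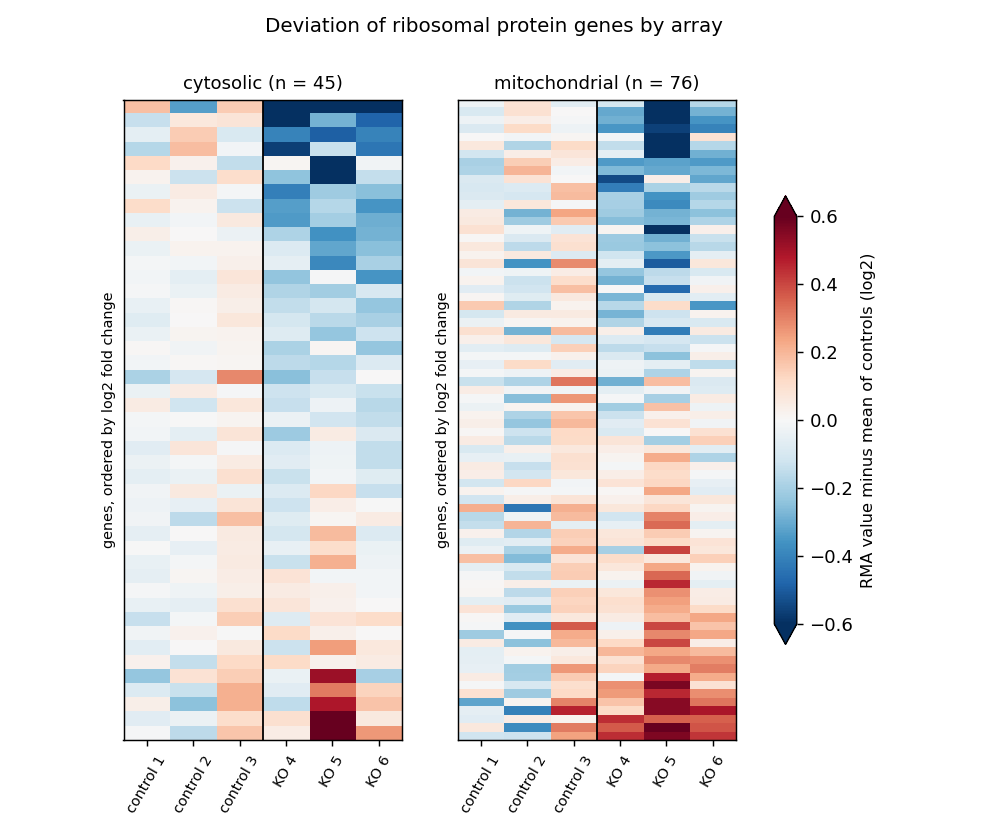
Each row is 1 ribosomal protein gene, ordered by log2 fold change, and each column 1 array; colour is the RMA value minus the mean of the controls (log2, limited to ±0.6). In the mitochondrial panel the darkest blue falls on GHRH-KO replicate 5, where 8 genes lay more than 0.5 below their median.

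The genes were then split by the promoter element, as a description. Cytosolic genes with CCGGAA had a median log2 fold change of -0.10 (24 tested) and those without it -0.09 (15 tested). Of these genes 8 and 6 lay apart lower, where 15.7% of all genes tested did. Mitochondrial genes with it had a median of 0.02 (37 tested) and without it -0.06 (30 tested), and 7 and 4 lay apart lower. For AAGATGG the medians with and without it were -0.11 and -0.09 for cytosolic genes (6 and 33 tested), with 3 and 11 apart lower. For mitochondrial genes they were -0.05 and 0.00 (13 and 54 tested), with 2 and 9 apart lower. For CTTTC or CTTCC near the start they were -0.02 and -0.11 for cytosolic genes (8 and 31 tested), with 3 and 11 apart lower. For mitochondrial genes they were 0.07 and -0.05 (6 and 61 tested), with 0 and 11 apart lower. None of these splits was tested.

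Other genes of protein synthesis were counted over 11 lists. Of the 198 genes tested 2 were called, both lowered (1.01%, against 0.97% of all genes tested). Groups lay apart with the GHRH-KO arrays lower in 70 (35.4%) and higher in 8 (4.04%), against 15.7% and 12.7% of all genes. Tars, the cytosolic threonyl-tRNA synthetase, read 10.92, 10.73 and 10.63 in controls and 9.77, 9.64 and 9.40 in GHRH-KO mice, and fell by 1.16 on the log2 scale (SE 0.14, adjusted p = 0.0149). Its groups lay apart by 0.87. Its call was lost without control replicate 2 or 3 (adjusted p = 0.0657 and 0.0513) or GHRH-KO replicate 6 (0.0563). Of the 19 cytosolic aminoacyl-tRNA synthetases tested, which charge tRNAs with their amino acids, 13 lay apart lower and 1 apart higher (15.7% and 12.7% of all genes), and the median log2 fold change was -0.31. Cars (-0.95), Farsa (-0.82) and Vars (-0.76) were lowest on GHRH-KO replicate 5, at 5.68, 6.16 and 6.45. Replicates 4 and 6 read 6.69 and 6.78, 7.43 and 7.39, and 7.48 and 7.61, also below all controls. Counts over the lists without replicate 5 were not made.

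Atf4, the transcription factor whose translation rises when eIF2 is phosphorylated, was the other gene called. It read 10.77, 10.59 and 10.61 in controls and 10.01, 10.06 and 9.88 in GHRH-KO mice, without overlap, and fell by 0.67 on the log2 scale (adjusted p = 0.0447). The call was lost on leaving out any 1 of control replicates 1, 2 and 3 and GHRH-KO replicates 4, 5 and 6, with adjusted p between 0.0681 and 0.162, and with the arrays centred on their medians (adjusted p = 0.0564). In its list of 25 genes of TOR and eIF2 control 8 lay apart lower and 2 higher (15.7% and 12.7% of all genes), with a median of -0.18. One of the higher was Mknk2, a kinase of eIF4E, at 0.82 (adjusted p = 0.08), chosen after its value was seen. One of the lower was Akt1s1, at -0.83. It read 6.85 on GHRH-KO replicate 5, 8.87 and 8.89 on replicates 4 and 6, and 8.92 to 9.11 in controls.

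No factor that builds ribosomes was called, though many lay apart. Of 45 ribosome biogenesis factors tested 20 lay apart lower and 1 higher (15.7% and 12.7% of all genes), with a median of -0.23. Unadjusted p was under 0.05 for 14 lower and 1 higher (10.1% and 9.15% of all genes). Nolc1, a nucleolar phosphoprotein, read 8.21, 8.08 and 7.86 in controls and 7.31, 6.87 and 7.27 in GHRH-KO mice (log2 fold change -0.90, adjusted p = 0.0542), and Bysl, a factor of small subunit assembly, had -0.66 (adjusted p = 0.0727). Neither overlapped between groups, and neither passed the threshold. RNA polymerase I and rRNA transcription genes, 15 in all, had 3 apart lower, 2 genes lower at an unadjusted p under 0.05 and a median of -0.03, with Polr1c at -0.30 and Polr1a at -0.42.

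No initiation or elongation factor was called. Of 32 cytosolic initiation factors 14 lay apart lower and 1 higher (15.7% and 12.7% of all genes), with a median of -0.14. Unadjusted p was under 0.05 for 8 lower and 1 higher (10.1% and 9.15% of all genes). Eif2b4 (-0.53, adjusted p = 0.121) and Eif2b1 (-0.47, adjusted p = 0.126), subunits of the exchange factor that recharges eIF2, lay apart. Of 11 elongation and termination factors 1 lay apart, Eef2, the translocase, at -0.39 (adjusted p = 0.161), with a list median of -0.06, and Eef1a2 had -0.43 with overlapping groups. The stalk genes Rplp0 and Rplp2 had -0.27 and -0.09, with overlapping groups. Whether these lists differ from each other was not tested.

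No mitochondrial counterpart was called by limma, and an unadjusted p under 0.05 was found for 1 translation factor (lower), 5 assembly and RNA factors (2 higher, 3 lower), 3 synthetases (lower) and 1 ribosomal protein with another symbol (lower), beside 9.15% of all genes higher and 10.1% lower. The 11 mitochondrial translation factors had a median of -0.04 with 1 apart lower, Oxa1l, which inserts proteins into the inner membrane, at -0.26, while Mtfmt, which formylates the initiator tRNA, had -0.38 with overlap. The 18 genes of ribosome assembly and mitochondrial RNA had a median of -0.02, 2 apart higher and 5 lower (12.7% and 15.7% of all genes), with Polrmt, the mitochondrial RNA polymerase, at -0.45 and Tfb2m, its transcription factor, at 0.26. The 15 mitochondrial aminoacyl-tRNA synthetases had a median of -0.18, with Fars2 at -0.44 and Cars2 at -0.40, both apart. Among 4 mitochondrial ribosomal proteins with other symbols, Gadd45gip1 had -0.46, apart, and Chchd1 0.56, with overlap, and the median was 0.17.

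**Figure D5:**
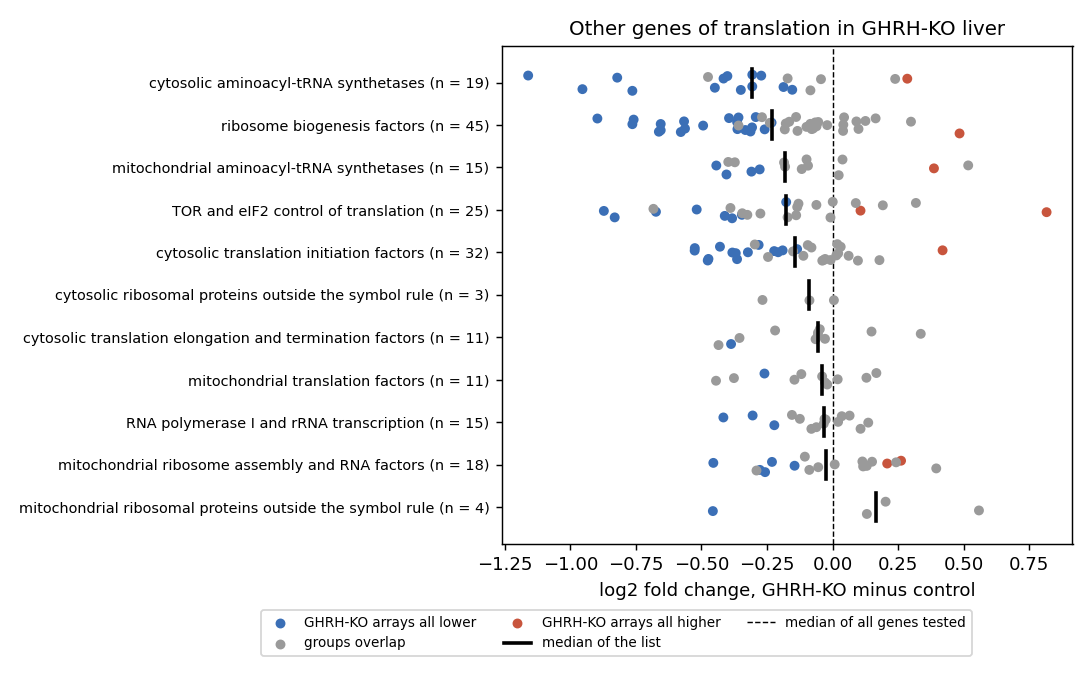
Log2 fold change (horizontal axis, GHRH-KO minus control) of each tested gene in 11 lists of translation genes, with the list median as a bar and the median of all genes tested as a dashed line. Cytosolic aminoacyl-tRNA synthetases (median -0.31) and ribosome biogenesis factors (-0.23) sit to the left, and the medians of the 4 mitochondrial lists lie between -0.18 and 0.17.

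Markers of other cells were compared because they could move with these genes. Alas2, the erythroid heme synthesis enzyme, read 10.71, 11.21 and 10.95 in controls and 9.86, 9.33 and 9.61 in GHRH-KO mice, without overlap, and fell by 1.36 on the log2 scale (adjusted p = 0.0219). It was the only 1 of 5 erythroid markers listed that was tested, so it stands for 1 gene and not for the cell type. The summed level of 3 of 5 pancreatic acinar markers, on the linear scale, was 1470.1 to 2642 in controls and 447 to 594 in GHRH-KO mice. Most of that sum was Cela1, the acinar elastase, which fell by 2.07 on the log2 scale (adjusted p = 0.0091 from limma). Ctrb1, the other acinar marker tested, was not called and its groups overlapped. It read 8.41, 5.64 and 5.44 in controls and 5.35, 5.24 and 5.44 in GHRH-KO mice. The Kupffer cell list (9 of 9) summed to 2505 to 6155 and 2555 to 7239.5 with 0 called, and no marker on the lymphocyte, neutrophil, endothelial, stellate cell or cholangiocyte lists was called. Uncalled is not unmoved, and not every marker was tested. Median log2 fold changes were 0.73 for lymphocyte (4 of 10 tested), 0.78 for neutrophil (2 of 7) and 0.29 for stellate cell markers (8 of 8). They were 0.31 for Kupffer cell (9 of 9), 0.13 for endothelial (6 of 7) and -0.54 for cholangiocyte markers (3 of 5). The part of these cells in the values of the ribosomal protein genes was not tested.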

How the data were processed

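Expression was measured on Affymetrix Mouse Genome arrays. Per the labels, the authors used RMA, and the log2 values they deposited cover 45101 probe sets. They ran from 2.53 to 14.7. The software version and the order of its steps are not given in the sources used here, and the detection filter of the methods is not applied in the deposited values. RMA makes the distributions of arrays alike, which hides a shift common to most genes, and it compresses large differences. Arrays give no counts, so their number limits the precision.

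After removal of 64 control probe sets, the brightest 25145 by their mean value entered the test (the dimmest had a mean of 4.64). The genotypes were compared by limma (version 3.58.1, R version 4.3.3; lmFit, then eBayes, two-sided), with Benjamini-Hochberg adjustment over all probe sets tested, and the fit was tested on simulated data. The annotation gave 1 gene to 34958 probe sets, none to 9211, and several to 932, from which no member was taken. The pairs of probe set and gene come from GEO's platform annotation, which can be old. A gene's groups lie apart when every value of one is above every value of the other.

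The members and lists were chosen with earlier results of these data known, so counts are described beside those over all genes and no list was tested. Named were every member called, the 6 highest and 6 lowest fold changes and the 3 brightest members of each ribosome, Rps6, the paralog pairs with values, and of each list up to 3 called genes or the 2 with the lowest p. Rps18, Rpl35, Mrpl49, Cars, Farsa, Vars and Akt1s1 were added after their values were seen, and were not followed under the alternatives. Alternatives were other filters, scalings, probe set choices, array weights, a variance trend and arrays left out. Plots were made in Python 3.11.15 (matplotlib 3.10.9).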

Additional observations from a re-analysis of the deposited data

How the results depend on the processing

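No paired analysis was possible because the groups share no replicate numbers. Across 16 alternatives 0 cytosolic genes were raised, and 0 mitochondrial genes were raised or lowered. The count of cytosolic genes lowered was 0 to 1 on leaving out 1 array, and 0 without control replicate 2 and GHRH-KO replicate 5, where Rps4l had adjusted p = 0.113. The cytosolic median ran from -0.11 to -0.08 on leaving out 1 array. It was -0.29 without probe sets that may hybridize to several transcripts, which left 21 genes, most of them read by dimmer probe sets. Centring the arrays gave -0.05 with the median of all genes at 0.05. The mitochondrial median ran from -0.07 to 0.05. Of the genes of translation lists, 1 was raised by the probe set with the lowest p and 1 with array weights. The number lowered was 4 with array weights, 0 to 1 on leaving out 1 array and 0 without both arrays. Calls over all genes rose with array weights to 248 raised and 288 lowered, from 98 and 121, and ran from 36 to 93 raised and from 46 to 95 lowered on leaving out 1 array.

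Of 864 values for 55 named genes under the alternatives, 813 kept direction and side of the threshold, 18 lost a call (of Rps4l, Tars and Atf4), 5 gained one (of Nolc1 and Bysl) and 28 changed sign, none of them a call. On leaving out 1 array the log2 fold change ran from -0.69 to 0.034 for Mrpl10 (0.034 without GHRH-KO replicate 5), -0.12 to 0.073 for Mrpl39, -0.12 to 0.24 for Rpl37, -0.094 to 0.053 for Rps27 and -0.0096 to 0.12 for Rps9. Without control replicate 2 and GHRH-KO replicate 5 the values were Mrpl10 0.026, Rpl37 -0.077, Rps27 -0.094, Rpl22l1 -0.12, Rpl27a 0.0083 and Rps24 -0.033. Without probe sets that may hybridize to several transcripts, of 1 gene or of several, they were Mrpl39 0.091, Mrps9 -0.13, Rpl22 0.00031, Rps9 -0.50 and Oxa1l 0.19. By the probe set with the lowest p they were Mrpl39 0.091, Rps4x -0.044 and Rps9 -0.50, and by the gene mean Mrpl39 0.034, Rps4x -0.011 and Rps9 -0.52. Centring gave Mrpl39 0.023, and array weights Rpl37 -0.11, Rps27 -0.071 and Rps4x -0.0079. The cause of these changes was not tested. Genes read only by dim probe sets that were not tested, 4 members among them, cannot be judged.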
